A study of Mus musculus with 4 samples.

Results

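The *Cd209* genes encode the mouse counterparts of human DC-SIGN (CD209), and their transcripts were followed here in LPMs, or large peritoneal macrophages, which reside in the peritoneal cavity. Members were taken as every gene of the deposited expression table whose name is *Cd209* followed by a single letter, which gave 7 genes, *Cd209a* to *Cd209g*, of 18364 in the table. Interest in the family came from its difference between the groups of these same libraries, so the differences of its members are given as a description, with no test. The study that reported these libraries already lists *Cd209d*, *Cd209f* and *Cd209g* among its raised transcripts. It names *Cd209d* with genes usually restricted to small peritoneal macrophages. It also reports more accessible chromatin at *Cd209d* in LPMs lacking *Rxra* and *Rxrb*. The samples were 2 libraries labelled WT and 2 libraries labelled Rxra-KO, made from sorted peritoneal macrophages of 8-week-old C57BL/6 mice. The WT mice are given as wild type and the Rxra-KO mice as lacking *Rxra*, which encodes retinoid X receptor alpha. Per the methods of the study, *Rxra* alleles flanked by loxP sites were deleted with Cre recombinase under control of *Lyz2* (LysM), so that deletion was driven in cells of the myeloid lineage. The study names mice with floxed *Rxra* alleles as the controls of this comparison. Cells were gated as F4/80 positive, MHC class II negative and CD102 positive and were sorted in successive rounds. Nothing in the labels says whether the libraries of a group came from separate animals, so no p-value can be taken to measure a spread between animals. Limma pools the spread over genes, with 227 prior degrees of freedom against 2 from the gene itself. A p-value therefore rests almost wholly on the pooled spread and hardly on a gene's own spread between these libraries.

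DC-SIGN proteins are type II membrane C-type lectins, with a calcium-dependent carbohydrate recognition domain at the carboxy-terminal end. They bind mannose-rich and fucose-containing glycans of viruses, bacteria, fungi and helminths, and also glycoproteins of the host such as intercellular adhesion molecules. Humans carry *CD209* and a close relative, whereas the mouse carries a tandem cluster of paralogues, also called SIGNR genes, which differ in the sugars they bind and in the cells that make them.

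The 7 genes were covered unevenly. Recovered reads per library were 652542 and 947372 in WT, against 629030 and 1047021 in Rxra-KO, and the median gene had 9 reads per library. Values below are the deposited normalised read signal, in which 1 read was worth 1.51 and 1.08 in WT replicates 1 and 2 and 1.51 and 0.993 in Rxra-KO replicates 1 and 2. *Rxra* itself was counted at 20 and 28 reads in WT, against 33 and 77 under the Rxra-KO label, a log2 difference of 0.99 (SE 0.36, limma adjusted *p* = 0.183). *Rxra* was therefore not lower under its knockout label. The labels were followed, and a gene-level sum cannot show whether a single exon is missing. *Lyz2*, the gene whose control drives Cre here, had 9420 and 10684 reads in WT, against 4241 and 6272 in Rxra-KO. Its log2 difference was -1.03 (SE 0.24, limma adjusted *p* = 0.00163), and what this says of the labels was not tested.

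As a family, the *Cd209* genes had 98 and 76 reads in WT replicates 1 and 2 and 2225 and 2030 reads in Rxra-KO replicates 1 and 2. The summed signal was 154 and 86.2 in WT, against 3355 and 2020 in Rxra-KO. The family took 0.0150% and 0.00802% of all reads in WT, against 0.354% and 0.194% in Rxra-KO. Both Rxra-KO libraries lay far above both WT libraries. In bulk RNA, a larger share of cells that express a gene and more RNA per cell cannot be told apart. For 5 of the 7 members, *Cd209a*, *Cd209d*, *Cd209e*, *Cd209f* and *Cd209g*, both Rxra-KO libraries were above both WT libraries, while 18.8% of all genes showed that order. The same 5 members had a log2 difference of at least 0.6, against 17.6% of all genes. The members were chosen on this contrast, so nothing is read from these counts.

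**Figure D1:**
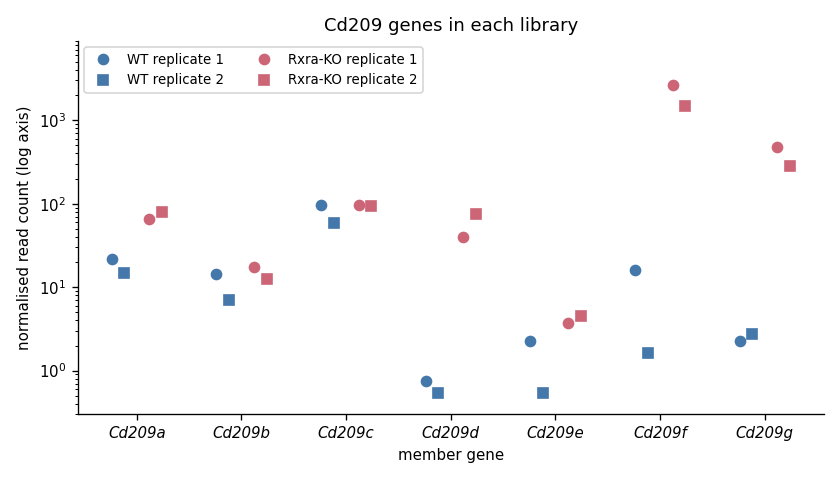
Normalised read signal (y axis, log scale) of the 7 *Cd209* genes (x axis) in each library, with circles for replicate 1, squares for replicate 2, blue for WT and red for Rxra-KO. *Cd209f* ran from 1.63 and 15.9 in WT to 1474 and 2649 in Rxra-KO, while the points of *Cd209b* and *Cd209c* overlapped between the groups.

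The make-up of the family was different in the 2 groups. *Cd209c* supplied 64.3% of the family reads in WT replicate 1 (exact binomial 95% interval 54.0 to 73.7) and 71.1% in WT replicate 2 (59.5 to 80.9). In Rxra-KO the same gene supplied 2.88% and 4.58%. *Cd209f* supplied 10.2% and 1.32% of the family reads in WT, against 79.1% (77.3 to 80.7) and 73.1% (71.1 to 75.0) in Rxra-KO. A gene with few reads in WT thus made up most of the family in Rxra-KO, and the gene that led in WT became a minor part of a larger total. *Cd209g* went from 1.02% and 2.63% of the family reads in WT to 14.4% (12.9 to 15.9) and 13.8% (12.4 to 15.4) in Rxra-KO. *Cd209a* went from 14.3% and 17.1% to 1.93% (1.40 to 2.59) and 3.94% (3.14 to 4.88), although its own signal was higher in Rxra-KO. Shares of reads also depend on transcript length, which is treated below. The libraries carry no molecular identifiers, so several reads can stem from 1 molecule, and all intervals here cover counting error only.

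**Figure D2:**
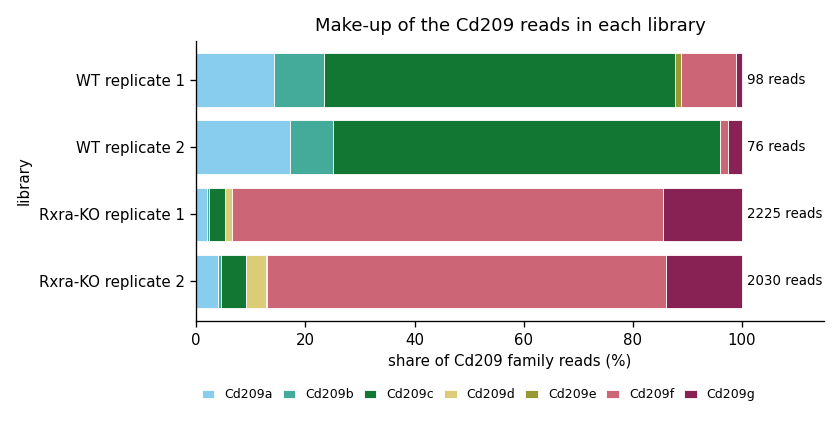
Share of the *Cd209* family reads (x axis, percent) taken by each member in each of the 4 libraries (rows), with the number of family reads at the right. *Cd209c* fills most of both WT bars, with 64.3% and 71.1%, and *Cd209f* most of both Rxra-KO bars, with 79.1% and 73.1%.

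*Cd209f* (SIGNR8) and *Cd209g* (SIGNR7) lie next to each other at one end of the cluster. *Cd209f* had 10 and 1 reads in WT replicates 1 and 2 and 1759 and 1484 reads in Rxra-KO replicates 1 and 2, or signals of 15.9, 1.63, 2649 and 1474. The groups were far apart, WT replicate 1 was the higher WT library, and Rxra-KO replicate 1 was the higher Rxra-KO library. The mean signal was 8.76 ± 10.1 in WT and 2062 ± 831 in Rxra-KO (n = 2, SD), a log2 difference of 8.21 (SE 0.31) on the log2(signal + 1) scale. Every SE given here is that of limma, which pools the spread over genes, and is not the gene's own replicate spread. With each library left out in turn, the difference of *Cd209f* ran from 6.87 to 9.56. The ratio of Rxra-KO to WT reads, scaled to library size, was 279 (95% counting interval 156 to 560). The WT libraries differed from each other by a factor of 14.0 (1.99 to 606), since WT replicate 2 held a single read. The Rxra-KO libraries differed by a factor of 1.80 (1.68 to 1.93), which is beyond counting error.

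*Cd209g* had 1 and 2 reads in WT, against 320 and 281 reads in Rxra-KO, or signals of 2.27, 2.71, 483 and 280. Both WT libraries were near the level of single reads and both Rxra-KO libraries were well above it. The mean was 2.49 ± 0.312 in WT and 381 ± 144 in Rxra-KO (n = 2, SD), and the log2 difference was 6.72 (SE 0.40). With only 3 WT reads in all, the ratio of 190 carried a counting interval from 64.6 to 922. Rxra-KO replicate 1 exceeded Rxra-KO replicate 2 by a factor of 1.73 (1.47 to 2.03), in the same direction as for *Cd209f*.

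Reads of these 2 genes cannot be fully separated, because the genes are near copies of each other. Their longest protein-coding transcripts in GENCODE vM21 (GRCm38) matched at 90.2% of 1179 aligned bases. Of the 31-base words of *Cd209f*, 491 of 1156, or 42.5%, also stood in *Cd209g*, and 490 of 1139, or 43.0%, of those of *Cd209g* stood in *Cd209f*. A read from such a stretch could have been counted for either gene. The sum of the pair does not depend on that choice, provided that every such read was counted for either gene. Whether reads that fit both genes were dropped is not known. The sum was 11 and 3 reads in WT, against 2079 and 1765 reads in Rxra-KO. The summed signal was 9.95 ± 9.48 in WT and 2442 ± 974 in Rxra-KO (n = 2, SD), with a ratio of 260 (155 to 476). Within the pair, *Cd209g* took 15.4% (13.9 to 17.0) of the reads in Rxra-KO replicate 1 and 15.9% (14.2 to 17.7) in Rxra-KO replicate 2. The intervals of the 2 Rxra-KO libraries overlapped, and the shared words limit what can be said of each gene's own level.

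**Figure D3:**
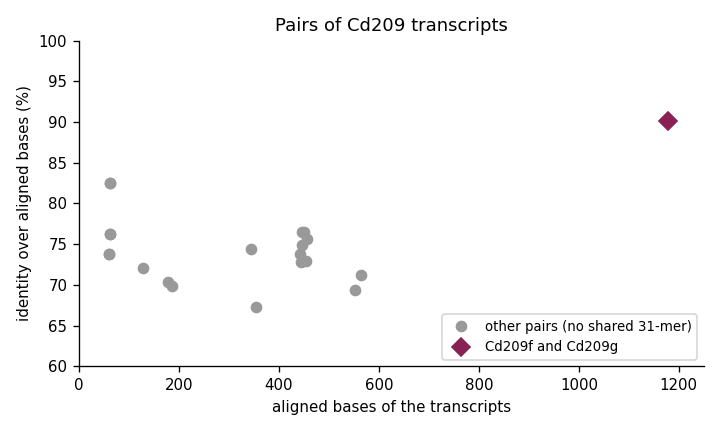
Identity over the aligned bases (y axis, percent) against the number of aligned bases (x axis) for the 21 pairs of *Cd209* transcripts. The pair *Cd209f* and *Cd209g* (diamond) aligned over 1179 bases at 90.2%, while the other pairs (grey) aligned over 61 to 565 bases and shared no 31-base word.

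The likeness of *Cd209f* and *Cd209g* extends upstream of the genes. The sequences are shown because the members with the largest differences share them, and because the other members do not. They come from the RefSeq promoter table of GRCm38.p6, are written 5′ to 3′ on the strand of the gene, and stop before the first base that GENCODE vM21 annotates as a UTR. *Cd209f* is shown for chr8:4105836-4106014 on the minus strand and *Cd209g* for chr8:4134486-4134651 on the plus strand. Capitals mark the part shown of the longest run that is identical in both, which is 154 bases long in the full windows of 250 bases.
Cd209f: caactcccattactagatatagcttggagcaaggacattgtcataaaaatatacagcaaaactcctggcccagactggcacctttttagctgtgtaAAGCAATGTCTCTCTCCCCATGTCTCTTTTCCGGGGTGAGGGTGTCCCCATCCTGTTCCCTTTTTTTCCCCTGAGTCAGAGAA
Cd209g: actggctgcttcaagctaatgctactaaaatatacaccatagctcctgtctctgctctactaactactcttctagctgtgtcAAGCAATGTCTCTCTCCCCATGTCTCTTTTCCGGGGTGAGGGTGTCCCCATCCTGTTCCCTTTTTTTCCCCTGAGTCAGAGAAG

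Over the full windows before the RefSeq starts, *Cd209f* and *Cd209g* aligned over 210 bases at 91.9% identity. The last 71 bases of the *Cd209f* window and the last 84 of the *Cd209g* window lie from the first annotated UTR base on. Part of this alignment is therefore transcript sequence by GENCODE and not upstream of the gene. The next longest alignment of any pair of members, *Cd209b* with *Cd209d*, covered 83 bases at 72.3%. The letters TATAAA stood 29 bases before the RefSeq start of *Cd209f* and 43 bases before that of *Cd209g*, in a part that GENCODE places inside the transcript. TATAAA was found on either strand in the windows of 3504 of 27025 genes, and of the members only *Cd209a* held it too, 184 bases before its start on the reverse strand.

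*Cd209d* (SIGNR3) encodes a lectin of the cluster that binds mannose-rich and fucosylated glycans and has been studied as a receptor for mycobacteria. No read of *Cd209d* was counted in either WT library, against 26 and 76 reads in Rxra-KO replicates 1 and 2. The deposited signal, which adds 0.5 read to every gene, was 0.757 and 0.542 in WT, against 39.9 and 76.0 in Rxra-KO. The groups did not overlap, and here Rxra-KO replicate 2 was the higher library, with a ratio of replicate 1 to replicate 2 of 0.519 (0.319 to 0.819). The mean was 57.9 ± 25.5 in Rxra-KO (n = 2, SD). Against a floor of 3 reads in each WT library, *Cd209d* was at least 14.7-fold higher in Rxra-KO. The fitted log2 difference of 5.09 (SE 0.69) depends on the constant added before taking logs and is not a bound. Unlike the pair above, *Cd209d* shared no 31-base word with any other gene of GENCODE vM21.

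The upstream sequence of *Cd209d* is shown for comparison, at chr8:3878556-3878749 on the minus strand of GRCm38.p6, again up to the annotated UTR. Capitals mark GATAA, the core bound by GATA factors, and TTCCTC, the reverse strand of GAGGAA, a core bound by PU.1.
Cd209d: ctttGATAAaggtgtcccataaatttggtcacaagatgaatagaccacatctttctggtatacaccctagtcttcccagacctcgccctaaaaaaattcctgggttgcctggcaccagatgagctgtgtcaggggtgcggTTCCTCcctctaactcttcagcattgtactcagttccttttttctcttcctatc

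Motif letters were searched on both strands in the windows of 250 bases upstream of the members and of all 27025 genes. AGGTCA, the half-site of nuclear receptors such as RXR and its partners, stood in 13.8% of all windows and, among the members, only in that of *Cd209e*. The repeats AGGTCANAGGTCA and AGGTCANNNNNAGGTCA stood in 0.0370% and 0.00740% of all windows and in none of the 7. TTCNNNNGAA, a site form bound by STAT6, stood in 5.86% of all windows and in that of *Cd209e*. GAGGAA stood in 23.1% of all windows and in that of *Cd209d* only, and GATAA in 23.0% and in those of *Cd209d* and *Cd209e*. The ETS core CCGGAA, chosen after the sequences had been read, stood in 12.2% of all windows and in those of 5 members, *Cd209a*, *Cd209b*, *Cd209e*, *Cd209f* and *Cd209g*. *Cd209f* and *Cd209g* hold it inside their shared run, so these are not independent matches. A match describes letters in a short window, and the absence of one says nothing of binding elsewhere.

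*Cd209a* (CIRE, or SIGNR5) carries the RefSeq synonym DC-SIGN and is used as a marker of dendritic cells and of dendritic cells derived from monocytes. It had 14 and 13 reads in WT, against 43 and 80 reads in Rxra-KO, or signals of 22.0, 14.6, 65.5 and 80.0. Both Rxra-KO libraries were above both WT libraries, and the WT libraries differed by less than counting error, with an interval of their ratio from 0.655 to 3.47. The mean was 18.3 ± 5.17 in WT and 72.7 ± 10.2 in Rxra-KO (n = 2, SD), with a log2 difference of 1.95 (SE 0.39) and a ratio of 4.31 (2.83 to 6.81). The Rxra-KO libraries differed by a factor of 0.815 (0.549 to 1.19), within counting error. Of the 10 dendritic cell markers listed, 0 were called higher and 1, *Cd24a*, fell, against 1.32% of all genes called higher and 0.969% lower. Apart from *Cd24a* the listed genes had few reads, and none is a marker particular to dendritic cells derived from monocytes. Their summed signal was 150 and 220 in WT, against 76.8 and 95.3 in Rxra-KO, and without *Cd24a* it was 65.9 and 86.2 against 58.0 and 74.0. *Flt3*, the receptor that dendritic cell precursors depend on, had 1, 3, 6 and 6 reads, and *Zbtb46*, a transcription factor of conventional dendritic cells, had 1, 8, 2 and 10, in the order WT replicates 1 and 2 and Rxra-KO replicates 1 and 2. Neither passed the test, and their part in the *Cd209a* values was not tested.

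*Cd209c* (SIGNR2) was the member with the most signal in WT. It had 63 and 54 reads in WT, against 64 and 93 in Rxra-KO, or signals of 96.1, 59.1, 97.1 and 92.9. WT replicate 1 was as high as the Rxra-KO libraries, and WT replicate 2 was below all 3. The mean was 77.6 ± 26.2 in WT and 95.0 ± 3.01 in Rxra-KO (n = 2, SD), with a log2 difference of 0.33 (SE 0.30) and a ratio of 1.27 (0.994 to 1.63). The 2 WT libraries differed by more than that, with a factor of 1.63 (1.11 to 2.39), and without WT replicate 2 the difference was -0.02. Of its 1520 words of 31 bases, 513, or 33.8%, also stood in transcripts of 74 other genes, none of them a *Cd209* gene. Part of the *Cd209c* signal may therefore have come from reads of other transcripts, and this was not tested.

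*Cd209b* (SIGNR1), the receptor through which marginal zone macrophages of the spleen take up bacterial polysaccharides, had 9 and 6 reads in WT, against 11 and 12 in Rxra-KO. Its signals were 14.4, 7.05, 17.3 and 12.4, and the groups overlapped. The log2 difference was 0.49 (SE 0.61), and the ratio of 1.45 had an interval from 0.726 to 2.99. *Cd209e* (SIGNR4) had 7 reads in all 4 libraries together, 1 and 0 in WT, against 2 and 4 in Rxra-KO. Its ratio of 5.68 ran from 0.689 to 261, so no difference in *Cd209e* was detectable at this depth in either direction.

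To compare levels between genes, each signal was divided by the length of the longest protein-coding transcript in kilobases. In WT, *Cd209c* stood highest, at 62.0 and 38.1 per kilobase, and *Cd209a* followed at 14.8 and 9.88. *Cd209b*, at 7.05 and 3.46 per kilobase, lay below *Cd209a*, and the spread of *Cd209f*, at 13.4 and 1.37, overlapped that of both. *Cd209g*, *Cd209d* and *Cd209e* lay between 0.301 and 2.32 per kilobase in WT, a range of a few reads in which no order can be read. In Rxra-KO the order was led by *Cd209f*, at 2234 and 1243 per kilobase, and *Cd209g*, at 413 and 239. *Cd209c* (62.7 and 59.9), *Cd209d* (43.4 and 82.7) and *Cd209a* (44.2 and 53.9) followed, and the spread of *Cd209d* covered both of the others. *Cd209b* at 8.49 and 6.09 and *Cd209e* at 2.09 and 2.48 per kilobase stood last. Among 16059 genes with a length, *Cd209f* ranked 10th and 25th per kilobase in Rxra-KO and 3538th and 12357th in WT. *Cd209g* ranked 93rd and 223rd in Rxra-KO and 11320th and 10330th in WT. These 2 ranks rest in part on reads that either copy could have produced.

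The genes around the cluster were then examined, since the 7 members sit in 1 uninterrupted row of the RefSeq gene order, *Cd209a*, *Cd209e*, *Cd209d*, *Cd209b*, *Cd209c*, *Cd209f*, *Cd209g*, with no other protein-coding gene between them. The largest differences stood at *Cd209f* and *Cd209g* at one end and at *Cd209d* in the middle, and *Cd209b* and *Cd209c*, which lie between these, had the smallest. Of the 20 nearest protein-coding neighbours, 10 on each side, 17 were in the table and *Fcor*, *Prr36* and *Tgfbr3l* were not analysed here. Of the 17, 1 was called higher in Rxra-KO, 2 were called lower and 14 did not pass, against 2.29% of all genes called in either direction, 1.32% higher and 0.969% lower. A call required a limma adjusted *p* under 0.05 over all 18364 genes and an absolute log2 difference of at least 0.6. The median log2 difference of the neighbours was -0.32, against 0.02 for all genes.

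*Clec4g*, which lies directly beside *Cd209a* and encodes LSECtin, another mannose-binding C-type lectin, was the neighbour that rose. It had 4 reads in each WT library and 42 and 56 in Rxra-KO, with means of 5.85 ± 1.37 and 60.1 ± 5.57 (n = 2, SD) and no overlap. Its log2 difference was 3.17 (SE 0.50, limma adjusted *p* = 3.11e-07). *Mcemp1*, a membrane protein gene on the same side, fell, with 226 and 326 reads in WT, against 62 and 117 in Rxra-KO, a log2 difference of -1.72 (SE 0.25, limma adjusted *p* = 1.62e-08). *Stxbp2*, which encodes a regulator of granule exocytosis, also fell, by 1.11 on the log2 scale (SE 0.23, limma adjusted *p* = 0.000409), from 306 and 385 reads to 123 and 224. *Fcer2a*, the low-affinity IgE receptor, lies between these genes and *Clec4g* and had a log2 difference of -0.32 (limma adjusted *p* = 0.935). *Evi5l*, the neighbour beside *Cd209g*, had 0 and 3 reads in WT, against 1 and 13 in Rxra-KO, which overlapped (log2 difference 1.24, limma adjusted *p* = 0.682). No protein-coding neighbour on the *Cd209g* side of the cluster passed the test.

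**Figure D4:**
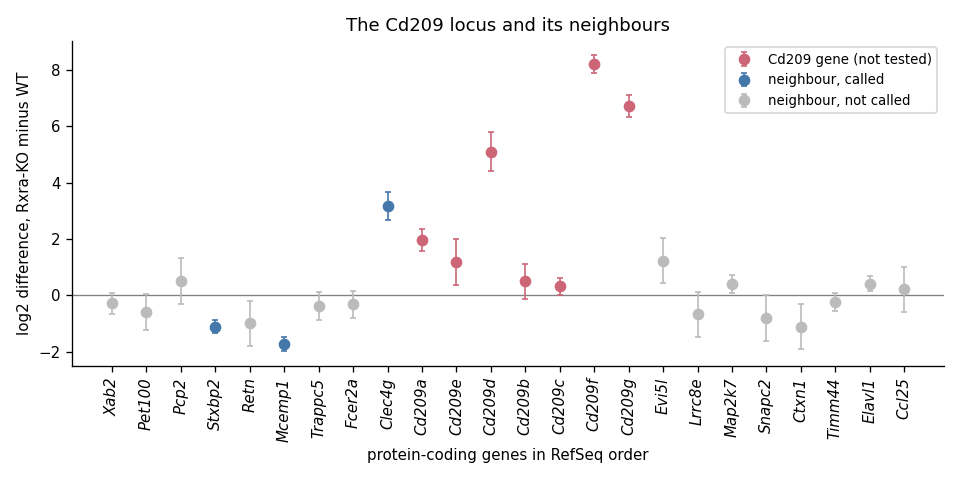
Log2 difference between Rxra-KO and WT (y axis, points with SE bars) for the *Cd209* genes (red, not tested) and their neighbours (blue where called by limma, grey where not), in RefSeq gene order (x axis, not to distance). The SE is that of limma, which pools the spread over genes. *Cd209f* at 8.21 and *Cd209g* at 6.72 stand beside *Evi5l*, which did not pass, and *Clec4g* at 3.17 stands at the other end beside *Cd209a*.

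Other lectins with related ligands were summarised next. Group II C-type lectins share the membrane topology of the CD209 proteins, and of 16 such genes outside the family 4 were called higher in Rxra-KO and 1 lower, with a median log2 difference of 0.37. *Clec4b1* had no read in WT, against 20 and 33 reads in Rxra-KO, at least 8.07-fold higher (limma adjusted *p* = 5.10e-06). *Clec10a*, which encodes a galactose-binding macrophage lectin, rose from 7 and 10 reads to 64 and 75, a log2 difference of 2.80 (SE 0.41, limma adjusted *p* = 1.85e-08). *Clec4g* is the third of the 4. *Clec4n*, which encodes Dectin-2, a receptor for fungal mannans, had 0 and 8 reads in WT, against 17 and 43 in Rxra-KO (log2 difference 3.04, limma adjusted *p* = 0.000428), and its call was lost without WT replicate 1, at 1.77 (limma adjusted *p* = 0.0638), or without Rxra-KO replicate 2, at 2.69. *Clec4e*, which encodes Mincle, a receptor for mycobacterial glycolipid, fell by 0.92 (limma adjusted *p* = 0.00647), from 298 and 425 reads to 144 and 268. Its call was lost without WT replicate 1, WT replicate 2 or Rxra-KO replicate 1, at -0.94, -0.91 and -0.77. *Mgl2*, the paralogue of *Clec10a*, had 10 and 4 reads against 8 and 16 and did not pass (limma adjusted *p* = 0.850).

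*Mrc1*, which encodes the macrophage mannose receptor CD206, was the 1 called gene among 5 of its family. It had 63 and 25 reads in WT, against 671 and 744 in Rxra-KO, a log2 difference of 4.04 (SE 0.26, limma adjusted *p* = 2.18e-34). The groups were well separated, and WT replicate 1 was again the higher WT library. The remaining 4 genes, *Mrc2*, *Ly75*, *Pla2r1* and *Cd302*, lay between -0.96 and 0.30. The median of the 5 was 0.25.

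*Icam2* and *Itgam*, 2 of the 4 genes of the next list, also stand in the list of LPM markers given below. Of the 4 genes for host proteins that DC-SIGN is known to bind, or for their partner chains, 2 were called lower and none higher, with a median of -0.84. *Icam2* fell by 1.25 on the log2 scale (SE 0.22, limma adjusted *p* = 5.30e-06), with 721 and 1199 reads in WT, against 309 and 542 in Rxra-KO. *Icam2* encodes CD102, on which the cells were sorted, so its level is bound up with the gate. *Itgam*, the CD11b chain of the integrin Mac-1, fell by 1.24 (SE 0.22, limma adjusted *p* = 8.60e-06). *Itgb2* and *Ceacam1*, at -0.44 and 0.21, did not pass.

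Genes that carry signals from DC-SIGN gave no call. Of 20 such genes in the table, 0 were called by limma, edgeR or DESeq2 and 4 had an unadjusted limma p under 0.05. Over all genes, 2.29% were called by limma, and 1854 of 18364 had an unadjusted limma p under 0.05. With 20 genes, 0 calls cannot be told apart from that share. Their log2 differences ran from -0.92 to 0.78, with a median of 0.20. *Lsp1*, which encodes the adaptor that binds the DC-SIGN tail, had 633 and 1060 reads in WT, against 799 and 1529 in Rxra-KO, a log2 difference of 0.36 (SE 0.21, limma adjusted *p* = 0.611).

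IL-4 is well known to induce DC-SIGN in human monocytes, through STAT6, and IRF4 and PU.1 are studied beside it. Of 9 genes of this axis, 1 was called higher and none lower, with a median of 0.52. *Irf4* rose from 12 and 19 reads to 41 and 58, a log2 difference of 1.54 (SE 0.39, limma adjusted *p* = 0.00756), and its call was lost without either Rxra-KO library, at 1.49 and 1.60. *Il4ra*, which encodes the receptor chain that binds IL-4, had 18 and 61 reads in WT, against 43 and 122 in Rxra-KO. The groups overlapped, the log2 difference was 1.03, and it did not pass (SE 0.33, limma adjusted *p* = 0.0825). *Stat6* at 0.52 and *Spi1*, which encodes PU.1, at -0.09 did not pass either.

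**Figure D5:**
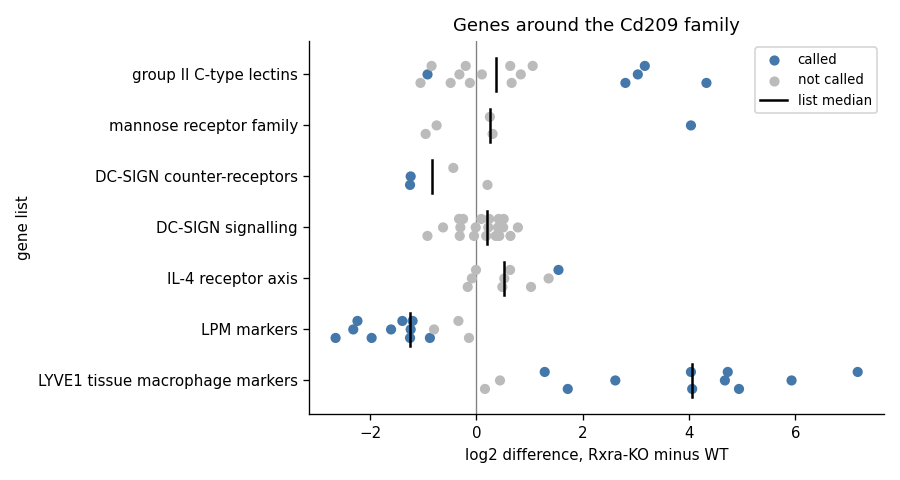
Log2 difference between Rxra-KO and WT (x axis) of each gene in 7 lists (rows), blue where called by limma and grey where not, with a black bar at the median of the list. The median was 4.05 for the LYVE1 tissue macrophage markers and -1.25 for the LPM markers, and the lists of lectins, ligands, signalling and the IL-4 axis had medians between -0.84 and 0.52.

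Marker lists of macrophage types also differed between the groups, and they were chosen with earlier results of these data known. Of 12 markers of LYVE1-expressing tissue macrophages, 10 were called higher in Rxra-KO and none lower, with a median of 4.05, and their summed signal was 1423 to 2656 in WT and 10140 to 11900 in Rxra-KO. No marker of that list was at 0 in any library. Within WT, replicate 1 was higher than replicate 2 for the summed signal, with 2656 against 1423, as it was for *Cd209f*. Most of the WT sums came from *Fcna*, which was not called, with 1715 and 1095 in WT, against 1380 and 2516 in Rxra-KO. Of 13 LPM markers, 10 were called lower and none higher, with a median of -1.25, among them *Gata6*, the transcription factor that defines these cells, with 35 and 65 reads in WT, against 3 and 24 in Rxra-KO. The *Gata6* call was lost without Rxra-KO replicate 1, at -1.31. *Adgre1*, which encodes F4/80, was not analysed here. The summed LPM signal was 38727 to 41290 in WT and 19118 to 20836 in Rxra-KO, most of it from *Prg4*, which encodes lubricin, and without *Prg4* it was 10299 to 11606 in WT, against 3988 to 4270 in Rxra-KO. Of 10 markers of small peritoneal macrophages, 6 were called higher and 1, *H2-Ab1*, lower, with sums of 749 to 2649 in WT and 4475 to 6366 in Rxra-KO and a median of 2.50, or 2.28 with *Clec4b1* at its bound. *H2-Ab1*, an MHC class II gene, overlapped between the groups, with signals of 366 and 2484 in WT, against 160.4 and 610.3 in Rxra-KO. Cells were gated as MHC class II negative, so the level of *H2-Ab1* is bound up with the gate. *H2-Ab1* supplied most of the sum of 2649 in WT replicate 2. Its call was lost without WT replicate 2, at -0.22, without Rxra-KO replicate 1, at -0.64, and by DESeq2, which called 4 genes of this list. The lists share genes, among them *Mrc1* and *Fcrls* in both the LYVE1 and the small macrophage lists. The 6 small macrophage genes called higher are named by the study as raised in these same data, and *Cd209d* is named there beside them. *Gata6* and *Icam2* are likewise named there as reduced, and *Lyve1*, *Folr2* and *Cbr2* are among its raised transcripts. These calls are therefore a description and not separate support. The part of these cell types in the *Cd209* values was not tested.

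Markers of other cells of the cavity were summed in the same way. Monocyte markers summed to 120 to 151 in WT and 104 to 132 in Rxra-KO, B cell markers to 51.0 to 53.0 and 54.6 to 76.8, and T cell markers to 94.4 to 114 and 76.5 to 96.4. Mast cell markers summed to 41.8 to 44.7 in WT and 32.3 to 44.4 in Rxra-KO, neutrophil markers to 241 to 259 and 193 to 254, and mesothelial markers to 73.4 to 98.2 and 62.5 to 80.0. No gene of these 6 lists was called by limma, edgeR or DESeq2, and 3 had an unadjusted limma p under 0.05, *Ms4a1*, *Lck* and *Lrrn4*. The shares over all genes were 2.29% called by limma and 1854 of 18364 at an unadjusted limma p under 0.05.

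Genes with the pattern most like each member were named by the Euclidean distance between centred log2(signal + 1) values over the 4 libraries, among 10043 genes with a mean signal of at least 10. This is a description over 4 libraries of 2 groups, and it says nothing of shared function or control. Nearest to *Cd209f* was *Fcrls*, an Fc receptor-like gene of resident macrophages, at a distance of 1.30, with signals of 26.5 and 1.63 in WT, against 1220 and 1231 in Rxra-KO. *Mucl1*, at 2.19, had no read in WT and signals of 324 and 130 in Rxra-KO. *Cbr2*, a carbonyl reductase, followed at 2.32 with 71.9, 7.05, 1796 and 1212, then *Lyve1*, a hyaluronan receptor, at 3.29 with 79.5, 11.4, 1109 and 846, and the ribonuclease *Rnase4* at 3.49 with 22.0, 17.9, 1157 and 490. *Fcrls*, *Cbr2* and *Lyve1* were, like *Cd209f*, several-fold higher in WT replicate 1 than in WT replicate 2, whereas *Rnase4* was nearly level between them.

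*Mucl1* was nearest to *Cd209g*, at 0.520, followed by *Tslp*, a cytokine gene, at 1.43, and *Rnase4* at 1.61. Nearest to *Cd209d* were *Clec4b1* at 0.954, *Tslp* at 1.32 and *Stac2* at 1.37. *Clec4b1* had signals of 30.9 and 33.3 in Rxra-KO, so that it stayed level where *Cd209d* differed between these libraries. Among the members themselves, *Cd209d* lay 2.04 from *Cd209g* and 3.80 from *Cd209f*, while *Cd209f* and *Cd209g* lay 2.52 apart. *Cd209a* was followed closely by *Abcc1*, a transporter gene, at 0.0887, *Dok2* at 0.142 and *Kctd12* at 0.197. *Cd209b*, with *Smap2*, *Hook2* and *Tmem175*, and *Cd209c*, with *Dguok*, *Plaa* and *Ubr2*, had nearest genes that were not called. The nearest genes of *Cd209e* were *Vat1*, *Tlr8* and *Maml1*, at distances of 0.147 to 0.192, on 7 reads of the member itself.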

How the data were processed

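LPMs were sorted by the authors, and RNA was amplified with SMART-Seq v4, which keeps neither molecular identifiers nor strand, and sequenced on a NextSeq-500. The methods of the study name Kallisto (version 0.43.0 in the submitters' processing notes), tximport, TMM scaling and limma, and a human reference for these mouse libraries, so the reference behind the table was not settled and only its gene names were used. The study left out RNA-seq samples that did not cluster with their group, which were not analysed here. The deposited table holds the authors' normalised read signal, equal to (reads + 0.5) over a scaled library size, and whole reads were recovered for 100% of the values within 0.001.

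Groups and replicate numbers were taken from the sample titles. Each gene was fitted on log2(signal + 1) with limma (3.58.1, R 4.3.3) with a mean-variance trend on all 4 libraries, in two-sided tests. The p-values were adjusted by Benjamini-Hochberg over 18364 genes, and a call needed adjusted p under 0.05 with a log2 difference of at least 0.6 in size. This gave 421 calls, and edgeR (4.0.16) on the recovered reads gave 446. The fits were tested on simulated data. With 2 libraries against 2, an exact permutation test cannot go below 0.333, so calls rest on limma's pooling of the spread over genes, and a log2 scale with a constant understates changes of low genes. Ratios are reads scaled to library size with exact binomial intervals.

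The members and the lists were chosen with earlier results of these data known, so they are not independent evidence. Named were all members, *Rxra*, called neighbours, called genes of each list (at most 4 by size, or single genes a sentence turns on) and the 5 genes nearest to *Cd209f* and 3 nearest to each other member. *Lyz2*, *Flt3*, *Zbtb46*, *Ms4a1*, *Lck*, *Lrrn4*, *Prg4*, *Fcna*, *Gas6* and *Stab1* were named after their values were seen. Alternatives covered pseudocounts, filters, scalings, tools (DESeq2 1.42.0 and voom included), a replicate block and leaving out each library.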

Additional observations from a re-analysis of the deposited data

How the results depend on the processing

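Recounts under other settings moved as follows. Calls over all genes, 421 with 243 higher and 178 lower, were 246 by DESeq2 (134 higher and 112 lower) and 236 to 377 when each library was left out (132 to 223 higher and 70 to 177 lower). Of the calls, 57.7% were higher, against 70.3% without WT replicate 2 and 46.7% without Rxra-KO replicate 2. Limma without the trend called 0 genes, hence 0 neighbours, 0 group II lectins, 0 mannose receptor genes, 0 counter-receptors and 0 genes of the IL-4 axis, with 1579 genes at an unadjusted p under 0.05. Called group II lectins, 5, were 3 by DESeq2 and 3 to 4 when a library was left out, with 3 without WT replicate 1. Called genes of the IL-4 axis, 1, were 0 by DESeq2, 3 with the replicate block and 0 to 2 when a library was left out (2 without WT replicate 2, 0 without Rxra-KO replicate 2). Same-numbered libraries deviated together with a correlation of 0.0629, and the crossed pairing gave -0.0629. With 2 libraries per group these values mirror each other, so they cannot show whether the numbers pair the samples. The replicate block gave 540 calls over all genes.

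With each library left out in turn, *Cd209c* ran from -0.0176 to 0.6746, *Dguok* from -0.0256 to 0.6997 and *Hook2* from -0.0253 to 0.8854, each turning negative without WT replicate 2 and highest without WT replicate 1. Across all settings *Cd209f* ran from 6.87 to 9.56, *Cd209g* from 5.64 to 7.63, *Cd209d* from 3.42 to 8.57, *Cd209a* from 1.68 to 2.23, *Cd209e* from 0.52 to 2.35 and *Cd209b* from 0.03 to 0.96. Of the 40 called genes of the lists and among the nearest genes, 40 kept their direction in every setting run and 31 kept their call whichever library was left out, the others being *Clec4e*, *Clec4n*, *Irf4*, *Gata6*, *H2-Ab1*, *Vat1*, *Gas6*, *Stab1* and *Prg4*. The 7 calls among small macrophage markers were 4 by DESeq2. Depth limits *Cd209b*, *Cd209e* and the WT level of *Cd209d*, *Cd209f* and *Cd209g*.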
